A study of Drosophila melanogaster with 2 samples.

Results

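The distal summits are the Rel-GFP ChIP-seq peaks that lie away from protein-coding genes, outside their bodies and more than 500 bp from any of their transcription start sites (TSS). There were 306 of them among the 2133 peaks that the authors kept after the irreproducible discovery rate (IDR) procedure. That procedure compares the ranks of peaks between lists, and the kept peaks did not all rank alike in replicates 2 and 3 (values below). The members were chosen by the pooled signal, as the peaks ranked below the 200 strongest, and by the position of the summit, so their strength, class and distance from genes are given as a description with no test. They made up 15.8% of the 1933 peaks in that range of ranks (exact Clopper-Pearson 95% interval 14.2 to 17.5). Of the 306, 255 were intergenic and 51 lay in a gene annotated as non-coding, while another 20 distal summits stood among the 200 strongest peaks and were not members. The data came from 1 group of 2 biological replicates, labelled 2 and 3, of Drosophila melanogaster larvae of the third instar, at the wandering stage. Each sample was made from whole animals, males and females together, of a transgenic line that stably expresses Rel with GFP at its C terminus. Chromatin was sonicated to fragments of 200 to 800 bp and precipitated with an antibody against GFP. The labels give no infection, no second condition, no promoter for the transgene and no age beyond the stage, and larvae of all tissues were mixed, so no peak can be assigned to a tissue. Read counts are not in the files, and library depth is therefore not known.

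Rel, or Relish, is the NF-κB protein of the Imd pathway, which responds to bacterial peptidoglycan. The precursor is cleaved on activation, after which its N-terminal DNA-binding part enters the nucleus and its C-terminal part, rich in ankyrin repeats, stays in the cytoplasm. A tag at the C terminus therefore marks the uncut protein or the C-terminal part. In flies, sequence far from start sites holds enhancers that act over distance and the genes of long non-coding RNAs and microRNAs, many of which have promoters of their own.

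The sequence under the strongest members is given as a description, and the likeness between windows was not measured. Windows of 100 bp either side of the summit are shown in the genome's plus strand, 5′ to 3′, for the 4 strongest members outside a chromosome arm whose sequence is not shown here. Capitals would mark runs of at least 7 alternating G and A (or C and T) or 8 alternating C and A (or G and T), and these windows hold none. Coordinates are on dm6.
rank 203, near CG43248, chr3L:15532387-15532587: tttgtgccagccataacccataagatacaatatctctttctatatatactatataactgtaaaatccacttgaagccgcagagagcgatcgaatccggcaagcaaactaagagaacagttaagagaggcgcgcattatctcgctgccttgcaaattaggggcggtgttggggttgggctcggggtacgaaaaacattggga
rank 211, near CG4218, chr2L:14552257-14552457: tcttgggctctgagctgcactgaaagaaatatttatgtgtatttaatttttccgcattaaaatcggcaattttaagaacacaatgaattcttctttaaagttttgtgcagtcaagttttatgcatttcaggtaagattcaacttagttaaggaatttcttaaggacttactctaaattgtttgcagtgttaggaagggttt
rank 212, near DNAlig3, chr3R:12403059-12403259: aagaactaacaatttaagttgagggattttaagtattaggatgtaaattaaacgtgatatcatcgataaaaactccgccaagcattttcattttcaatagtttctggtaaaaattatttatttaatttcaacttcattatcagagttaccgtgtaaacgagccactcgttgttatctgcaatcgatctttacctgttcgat
rank 219, near CG12268, chr3R:23949094-23949294: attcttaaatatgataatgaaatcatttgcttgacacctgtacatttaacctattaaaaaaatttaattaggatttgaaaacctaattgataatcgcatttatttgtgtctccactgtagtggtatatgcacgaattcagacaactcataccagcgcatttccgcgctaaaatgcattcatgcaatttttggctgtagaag

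The members with the longest repeats are shown next, since GA and CA repeats are compared below. The windows belong to the 3 members with the longest unbroken GA run and the 2 with the longest CA run, again outside that arm, with the repeats in capitals. The GA run was 18 bases at rank 1727 near comm, 15 at rank 485 near klu and 14 at rank 850 near ph-d, a Polycomb gene, and the first of these ended at the window's edge. Rank 1167 near c12.1 also had a run of 14, and rank 850 is shown because it ranked higher. The CA run was 21 bases at rank 823 near CG16965 and 19 at rank 1481 near CG5290.
rank 1727, near comm, chr3L:15729243-15729443: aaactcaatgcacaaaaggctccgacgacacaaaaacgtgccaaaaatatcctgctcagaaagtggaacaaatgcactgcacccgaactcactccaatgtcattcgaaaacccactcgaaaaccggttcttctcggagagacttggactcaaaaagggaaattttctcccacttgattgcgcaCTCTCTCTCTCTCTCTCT
rank 485, near klu, chr3L:11010377-11010577: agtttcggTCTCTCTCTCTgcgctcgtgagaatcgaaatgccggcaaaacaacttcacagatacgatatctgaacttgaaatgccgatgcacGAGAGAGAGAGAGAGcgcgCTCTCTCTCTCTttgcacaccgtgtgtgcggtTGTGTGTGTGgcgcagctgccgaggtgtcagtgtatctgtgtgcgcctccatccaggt
rank 850, near ph-d, chrX:2124390-2124590: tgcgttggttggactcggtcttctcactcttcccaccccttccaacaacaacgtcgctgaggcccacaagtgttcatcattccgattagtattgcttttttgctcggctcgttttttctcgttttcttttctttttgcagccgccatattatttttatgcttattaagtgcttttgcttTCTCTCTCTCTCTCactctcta
rank 823, near CG16965, chr2L:11965669-11965869: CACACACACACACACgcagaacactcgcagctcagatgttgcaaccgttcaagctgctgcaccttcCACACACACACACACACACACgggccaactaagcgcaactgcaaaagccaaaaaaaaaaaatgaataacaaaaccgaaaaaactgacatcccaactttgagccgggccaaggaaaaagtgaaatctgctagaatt
rank 1481, near CG5290, chr3L:17922822-17923022: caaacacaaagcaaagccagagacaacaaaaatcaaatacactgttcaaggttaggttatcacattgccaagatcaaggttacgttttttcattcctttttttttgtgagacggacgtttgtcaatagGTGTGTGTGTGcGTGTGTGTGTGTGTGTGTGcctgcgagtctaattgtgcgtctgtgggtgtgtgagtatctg

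For members in non-coding genes, the 3 highest-ranked windows outside that arm were those at ranks 398, in lncRNA:Vinr, and 399 and 446, both in lncRNA:CR46006. The window of rank 399 holds a run of 8 alternating C and A, in capitals, and an E-box string, CACGTG. The windows of ranks 398 and 446 hold none of the repeats marked here.
rank 398, near CG4004, chrX:12751177-12751377: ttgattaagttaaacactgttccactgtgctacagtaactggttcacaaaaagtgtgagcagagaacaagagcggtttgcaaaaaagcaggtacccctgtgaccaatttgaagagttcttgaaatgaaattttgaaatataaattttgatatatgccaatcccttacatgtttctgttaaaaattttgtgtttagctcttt
rank 399, near Or67d, chr3L:10332088-10332288: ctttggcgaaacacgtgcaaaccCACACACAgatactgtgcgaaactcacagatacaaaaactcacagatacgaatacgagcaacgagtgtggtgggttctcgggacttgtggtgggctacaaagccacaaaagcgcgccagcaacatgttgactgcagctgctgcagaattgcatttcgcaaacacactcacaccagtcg
rank 446, near CG12362, chr3L:10363725-10363925: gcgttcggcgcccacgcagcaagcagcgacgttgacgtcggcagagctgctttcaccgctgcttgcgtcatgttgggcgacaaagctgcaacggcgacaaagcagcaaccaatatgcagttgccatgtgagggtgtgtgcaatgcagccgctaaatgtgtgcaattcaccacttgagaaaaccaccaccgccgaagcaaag

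Most distal summits ranked high in both replicates, as did most peaks of the same ranks. Each replicate has its own relaxed list of 30000 regions, and a member was counted as present when it shared at least 1 bp with a region among the top 2133 of that list. By this count 235 members (76.8%, interval 71.7 to 81.4) were present in replicate 2 and 244 (79.7%, 74.8 to 84.1) in replicate 3. In both replicates 182 members were present (59.5%, 53.7 to 65.0), beside 55.9% of all 1933 peaks of the same ranks and 449 of 794 intronic summits (56.5%). The members' share was thus near that of the list they came from. The 153 stronger members were present in both in 136 cases (88.9%), and the 153 weaker ones in 46 (30.1%). Among ranks up to 1066 the share was 90.8% of members and 88.2% of all peaks. The high share of the stronger members was therefore also near that of the list. Since the pooled rank was made from the same 2 libraries, this is no independent check.

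Of the other 124 members, 53 were present in replicate 2 alone, 62 in replicate 3 alone and 9 in neither. Intergenic and non-coding members had alike shares in both, 59.6% and 58.8%. The median distance between a member's summit and the summit of its replicate region was 8 bp in replicate 2 and 20.5 bp in replicate 3. A total of 45 members differed by over 4 times in rank between the replicates. The member near CG1888 and mir-14 (rank 254) had rank 71 in replicate 2 and rank 3841 in replicate 3. At the other end, the member 1142 bp from CG13898 (rank 682) had rank 5598 in replicate 2 and rank 141 in replicate 3. The 2 members with no overlapping region in the replicate 3 list were those near ssp3 (rank 1176; rank 532 in replicate 2) and CG43336 (rank 1331; rank 470). Neighbouring members overlapped in 6 cases, and 10 members shared their replicate 2 region, and 12 their replicate 3 region, with another member. Sharing with peaks that are not members was not counted, although member 814 overlapped the peak of rank 199 near COX7AL2. The members are therefore not all separate measurements.

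**Figure D1:**
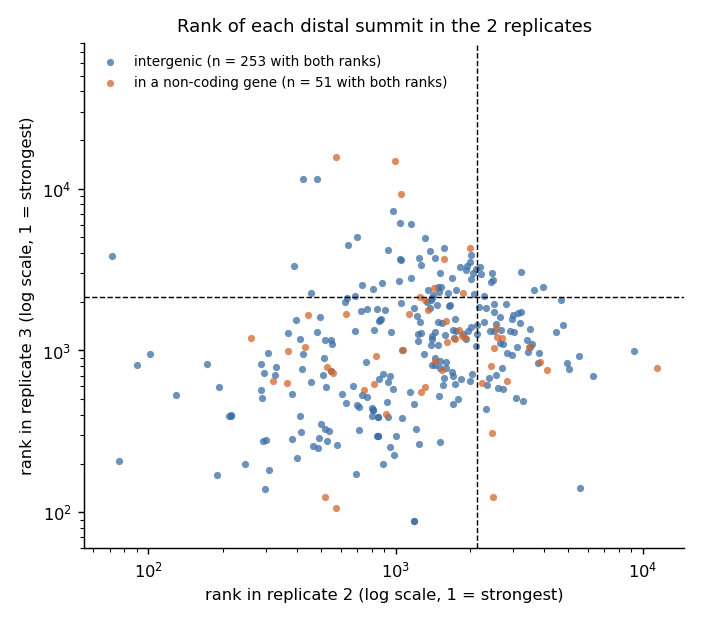
Rank of each distal summit in replicate 2 (x axis) and replicate 3 (y axis), both on log scales with 1 as the strongest; points are the 253 intergenic and 51 non-coding members with a region in both lists, and dashed lines mark rank 2133. The 182 members in the lower left field ranked among the top 2133 in both replicates.

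Of the 25 strongest distal summits, 24 were present in both replicates and 24 were intergenic, with signals from 155 to 186 on the authors' scale. The share in both replicates was not counted over all peaks of those ranks. The 25 summits lay from 520 to 22767 bp from the nearest start site, and 20 of them were upstream of that gene. The highest, rank 203 at chr3L:15532289-15532684, had rank 102 in replicate 2 and rank 945 in replicate 3. Its summit lay between the divergent genes CG43248, 1014 bp away, and CrebA, a bZIP transcription factor of secretory cells. A weaker member, rank 1183, lay in the same interval 1849 bp upstream of CrebA, with ranks 2012 and 1404.

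Ranks 209, 222, 251 and 264 had named genes on their flanks. Rank 209 lay between the convergent genes RYBP, a protein of Polycomb complexes, and Ppa, and had ranks 129 and 530 in replicates 2 and 3. Rank 222 lay 3247 bp upstream of ImpE1, an ecdysone-inducible gene of imaginal discs, with ranks 297 and 139. Rank 251 was 6039 bp upstream of scyl, a stress-induced inhibitor of TOR signalling, with ranks 889 and 199. Rank 264 lay between Adk3, an adenylate kinase, and Gadd45, a stress gene, 947 bp from the start of Adk3 and with ranks 291 and 274. These 4 members were all among the top 2133 of both replicates.

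Ranks 315, 333, 339 and 283 also lay near genes with known roles. Rank 315 was 1371 bp upstream of ft, the atypical cadherin Fat of growth control and planar polarity, with ranks 689 and 173. Rank 333 was between Wnt6 and Wnt10, genes of secreted Wnt ligands, 5176 bp from Wnt10 and with ranks 520 and 325. Rank 339 lay 4223 bp upstream of Psc, a Polycomb group gene, and 150 bp from a start of lncRNA:CR44339, with ranks 304 and 966. Rank 283 lay 3138 bp upstream of tara, a gene of cell cycle and sleep regulation, with ranks 529 and 276. The best replicate rank among these 4 members was 173, in replicate 3, and the poorest was 966, also in replicate 3.

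The rest of the 25 included those near DNAlig3, a DNA ligase (rank 212), pxb (236), Paics, an enzyme of purine synthesis (244), jp, the junctophilin of membrane junctions (261), and ppk, a sodium channel subunit of sensory neurons (328). Ranks 211, 219, 254, 258, 287, 290 and 337 had the unnamed genes CG4218, CG12268, CG1888, CG43402, CG3847, CG17896 and CG7320 as the nearest protein-coding gene. Rank 254 was also 120 bp from a start of lncRNA:CR43651. Ranks 232 and 239 were nearest to hng3 and rank 265 to CG13898, all in 1 interval described below. The single non-coding member of the 25, rank 224, lay in lncRNA:CR44468, 1315 bp from that gene's start and 3183 bp from MFS14, a transporter gene, with ranks 572 and 106. None of the 25 windows held the GA string GAGAGAG, and 4 held CACACACA.

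Over the whole set, members were closer to start sites than windows that met the same position rule. Distances to the nearest protein-coding TSS ran from 505 to 60553 bp with a median of 4288.5 bp. For comparison, the genome was cut into 198686 windows whose centres met the same position rule, each as long as a summit window, and their median distance was 8463 bp. Windows with unknown bases were left out, but repeats and sequence where reads map poorly were not. Some windows, here and in the comparisons below, may therefore not have been open to a peak. The farthest window lay 730479 bp from a start. Between 500 and 2000 bp from a TSS lay 39 and 52 members in the bins below and above 1000 bp (12.7% and 17.0%), where windows had 5.71% and 9.35%. Beyond 50000 bp lay 3 members (0.980%, interval 0.203 to 2.84), where 13.7% of windows lay. The median was 4303 bp without replicate 2 and 3767 bp without replicate 3.

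**Figure D2:**
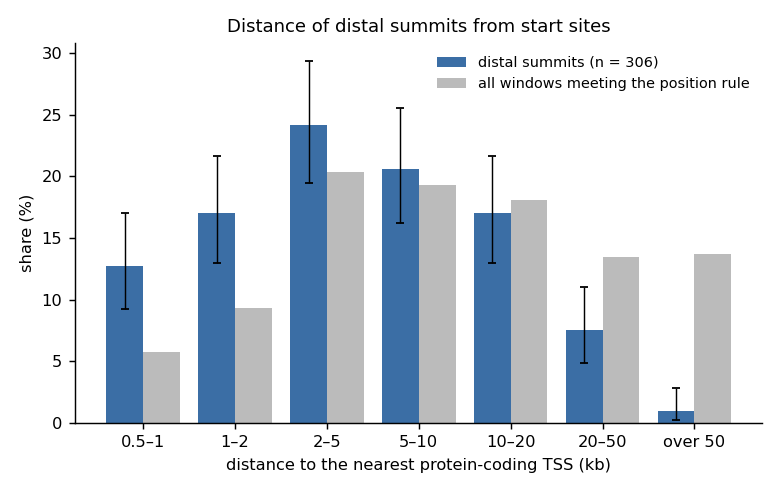
Share of distal summits (blue, n = 306, bars with exact 95% binomial intervals) and of all 198686 windows that meet the position rule (grey), in percent, by distance to the nearest protein-coding start site in kb. Members exceed windows from 0.5 to 2 kb (12.7% and 17.0% against 5.71% and 9.35%) and fall below them past 50 kb (0.980% against 13.7%).

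Members were upstream of the nearest gene in 196 cases (64.1%, interval 58.4 to 69.4), where 59.3% of windows were. The 2 flanking genes pointed away from each other at 103 members, the same way at 147 and towards each other at 56. The same counts were not made for the windows. The 225 genes with the nearest TSS made up 1.61% of 13945 protein-coding genes, and 175 of them were nearest to 1 member. CG6168, CG6163 and CG43245 were nearest to 5 members each, and hng3, CG18404, CG12362, fng and CG33795 to 4 each.

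The summits next to the limits of the rule are given as a description. Values beside a cut in an ordered list are close by construction. The nearest distal summits on the stronger side were rank 188 near CG32462, with a signal of 190.4, and rank 199 near COX7AL2, with 187. The strongest members had 186 at rank 203 and 185 at rank 209, and the weakest 72.5 at rank 2130 near glec. On the distance limit, summits 481 bp from prtp and 486 bp from Mkp3 fell outside, and those 505 bp from daw, an activin-like ligand, and 513 bp from CG6006 fell inside.

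Non-coding genes held 51 members (16.7%, interval 12.7 to 21.3), where they cover 7.21% of the windows that meet the position rule. The members lay in 42 genes, and 50 of the 51 were in genes named as long non-coding or antisense RNAs. Of the 51, 25 (49.0%, 34.8 to 63.4) were within 500 bp of an annotated start of a non-coding transcript, as were 24 of the 255 intergenic members (9.41%). Annotated starts of all non-coding transcripts counted, microRNAs included, such as mir-14 at 366 bp from rank 372. An annotated start of a non-coding transcript was thus within 500 bp of 49 members in all. The annotated start of a microRNA is an end of a processed RNA, so this count is not restricted to starts of transcription. No such count was made for the windows or the other peaks, so it is not known whether this is more than elsewhere. Non-coding members had a median signal of 90.7 beside 97.5 for intergenic ones, and a median of 513 bp to the nearest such annotated start beside 6758 bp. Non-coding members lie inside such genes by definition, and a summit in a short gene is near its start. The contrast in distance between the classes is therefore partly set by their definition, and was not tested.

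Named non-coding genes were few. lncRNA:Vinr, an RNA described as induced by virus infection in fly cells, held ranks 398 and 716 at chrX:12751079-12751474 and chrX:12751347-12751545. Both overlapped the replicate 3 region of rank 124, and in replicate 2 they had ranks 517 and 2474. The interval between CG4004 and Paics that holds them also held a peak of rank 12 and member 244. lncRNA:Hsromega, the heat-inducible RNA that organises omega speckles in the nucleus, held rank 876, 212 bp from its start, with ranks 443 and 1665. Uhg4, a host gene of small nucleolar RNAs, held rank 988, 30 bp from its start and 645 bp from Boot, with ranks 1314 and 596. lncRNA:let7C, the primary transcript of the let-7 cluster, held rank 1678, 87 bp from a start, with ranks 1571 and 3676. Of these 5 members, 3 were among the top 2133 of both replicates, namely 398, 876 and 988.

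MicroRNA genes had members near them more often than the windows did, in a description made after the members were seen. Of 260 microRNA genes, 10 had a member summit within 5000 bp. They had 16 members (5.23%, interval 3.02 to 8.35), where 1.23% of the windows lay that near. The number was 15 of 334 (4.49%) without replicate 2 and 17 of 294 (5.78%) without replicate 3. Counting only the best member of each interval between neighbouring genes, it fell to 6 of 200, or 3% of members.

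The 16 members lay at the following microRNA genes. mir-14, a suppressor of cell death that also acts in ecdysone signalling, had ranks 254, 372 and 732 within 366 to 1948 bp. Rank 372 was inside lncRNA:CR43651 and had ranks 560 and 721 in replicates 2 and 3, and rank 732 had 1782 and 502. mir-8, a regulator of insulin signalling and body growth, had ranks 887, in its host lncRNA:CR43650 and 965 bp upstream, and 1137, 3044 bp away. mir-282 had ranks 490 and 1313, and the latter overlapped the regions of rank 76 in replicate 2 and of rank 206 in replicate 3. mir-ban, or bantam, which drives growth and represses the death gene hid, had rank 1216 in its host lncRNA:CR43334, 1474 bp upstream, with ranks 2242 and 627. mir-9a, which sharpens the choice of sensory organ precursors, had rank 1863 at 3279 bp, with ranks 1498 and 2304. mir-10, which lies in the Antennapedia complex, had rank 1990 at 3188 bp, with ranks 1999 and 4282. mir-87 and mir-317 had rank 1103 and ranks 1629 and 1934. Of the 16 members, 8 were among the top 2133 of both replicates.

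mir-276a and mir-276b had members in the same interval, and their mature arms are shown because they are copies. The arms were read from RefSeq coordinates on the matching assembly, 5′ to 3′ on the strand of the gene, and capitals mark the seed, bases 2 to 8. The pair share both seeds, AGGAACT in the 3′ arm and AGCGAGG in the 5′ arm. The arms of bantam and mir-9a are shown beside them and have seeds of their own.
mir-276a, 5′ arm, chr3L:10365243-10365265: cAGCGAGGtatagagttcctacg
mir-276b, 5′ arm, chr3L:10319807-10319829: cAGCGAGGtatagagttcctacg
mir-276a, 3′ arm, chr3L:10365281-10365302: tAGGAACTtcataccgtgctct
mir-276b, 3′ arm, chr3L:10319846-10319867: tAGGAACTtaataccgtgctct
mir-ban, 5′ arm, chr3L:642222-642244: cCGGTTTTcgatttggtttgact
mir-ban, 3′ arm, chr3L:642259-642281: tGAGATCAttttgaaagctgatt
mir-9a, 5′ arm, chr3L:19565140-19565162: tCTTTGGTtatctagctgtatga
mir-9a, 3′ arm, chr3L:19565179-19565200: tAAAGCTAgcttaccgaagtta

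The interval with mir-276a and mir-276b held the most distant members. It spans 138193 bp of 3L between Or67d, a receptor for a male pheromone, and CG12362, and contained 7 members over 59352 bp. Of these, 5 (ranks 399, 446, 721, 1408 and 1433) lay inside lncRNA:CR46006, the host of mir-276a. Rank 399 was 273 bp from a start of CR46006 and had ranks 261 and 1203. Rank 446 was 194 bp from another start and 1403 bp upstream of mir-276a, with ranks 320 and 648. Rank 1433 was 45 bp from mir-276a, with ranks 1254 and 2150. Rank 2018, 2170 bp downstream of mir-276b, had ranks 2312 and 1823. Of the 10 members farthest from any protein-coding start, 7 were in this interval, from 31413 bp (rank 1633) to 60553 bp (rank 721). The other 3 were rank 933 near CG43245, at 31954 bp, rank 788 near plh, at 32321 bp, and rank 855 near comm, at 33356 bp, and all 3 were among the top 2133 of both replicates.

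Some intervals between neighbouring protein-coding genes held several members, though most held 1. Of 200 intervals with a member, 145 held 1, 32 held 2 and 23 held at least 3, and these 23 held 97 of the 306 members. They were long, with a median of 24747 bp (6242 to 138193 bp), beside 8211 bp for intervals with 1 member. Of the 97, 62 were in the top 2133 of both replicates, as were 84 of the 145 single ones. Besides the members, 5 of the 23 also held a peak of the 200 strongest. Windows and other peaks were not counted by interval, so it is not known whether members were grouped more than these.

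Some dense intervals had all their members in both replicates. The interval between mtSSB, a mitochondrial DNA-binding protein gene, and tara held 5 members (ranks 283, 507, 604, 725 and 880), all in both replicates, whose replicate ranks lay between 276 and 1157. CG18404 and heca, the headcase gene of imaginal cells, flanked 5 members (402, 497, 649, 808 and 1131), again all in both, and also the peak of rank 125. The interval from CG6168 to CG6163 held 6 members, all in both, with ranks from 388 to 1613 in the replicates. The next interval, from CG6163 to CG11726, held 4 more.

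Other dense intervals had only a part of their members in both replicates. Between hng3 and CG13898, ranks 232, 239 and 265 were in both replicates while 682, 1486 and 1621 were not. Between CG33795 and CG33687, 4 of 6 were in both, but the strongest, rank 362, and its neighbour 1272 shared 1 region of rank 1191 in replicate 2 and 1 of rank 88 in replicate 3. NijA, a gene of the ninjurin membrane proteins, and CG43245 flanked 7 members of which 1, rank 933, was in both.

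Further dense intervals lay at hid, hry and fng. hid, an activator of apoptosis, and CG7320 flanked ranks 345, 593, 1072 and 1692, of which the first 3 were in both. The strongest, rank 345, had ranks 410 and 394 in replicates 2 and 3. On 1 side of hry, the bHLH repressor Hairy, ranks 366, 738, 851 and 1904 lay before SrpRbeta, and on the other side ranks 597, 796, 986 and 1017 lay before Pex7, with 3 of 4 in both on either side. Upstream of fng, which modifies Notch, ranks 568, 1456, 1687 and 1970 lay 689 to 2165 bp from the start, and the first 2 shared their regions in both replicates.

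**Figure D3:**
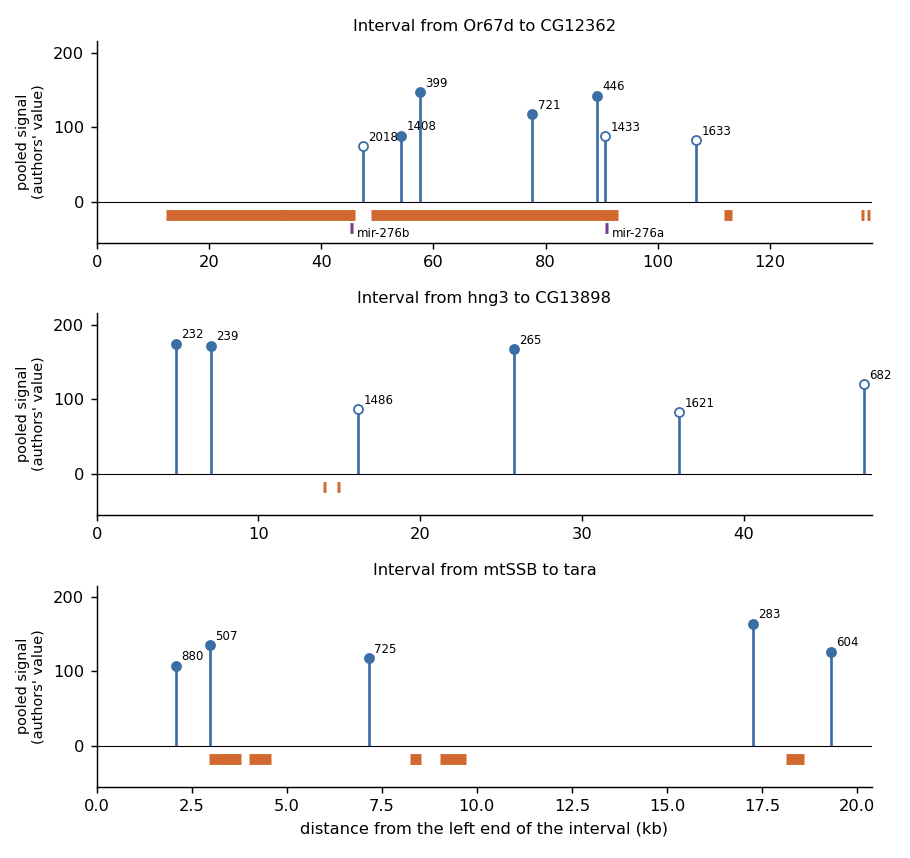
Distal summits in 3 intervals between neighbouring protein-coding genes, by distance in kb from the left end of the interval (x axis) and the authors' pooled signal (y axis); labels give the rank, filled points were in the top 2133 of both replicates, orange bars are non-coding genes and purple ticks microRNA genes. All 5 members between mtSSB and tara are filled, as are 4 of 7 between Or67d and CG12362 and 3 of 6 between hng3 and CG13898.

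Chromosome arm 3L held more members per length than the others, and most of the dense intervals. It had 113 members, 11.7 per Mb of windows meeting the position rule (exact Poisson 95% interval 9.68 to 14.1), where all chromosomes together had 7.66. 2L had 6.30, 2R 6.05, 3R 7.87, X 4.97 and chromosome 4, with 1 member near ci, 3.36. Of the 23 intervals with at least 3 members, 15 were on 3L. The ratio of 3L to all was 1.53, and 1.47 without replicate 2. With 1 member per interval it was 1.04, since 50 of the 200 intervals were on 3L. The densities were not tested.

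Of 264 genes on 19 lists, 19 (7.20%) were nearest to a member, where 1.61% of all protein-coding genes were. The lists were chosen with earlier results known and the difference was not tested. Of the 19 lists, 10 had no gene nearest to a member: those of the antimicrobial peptides (0 of 15), the Imd pathway (0 of 24), the Toll pathway (0 of 19), JAK-STAT (0 of 12), heat shock (0 of 15), fat body (0 of 12), haemocytes (0 of 14), muscle (0 of 14), neurons (0 of 11) and midgut (0 of 9). At the share of 1.61% over all genes, a list of this size would hold few, and the zeros were not tested. Counted as flanking genes instead, the haemocyte list had lz and the neuron list Syt1, and the rest of these lists still had none. The Bomanins, short peptides induced by Toll signalling, had 1 of 12, BomT1, with rank 1448 inside lncRNA:CR42736, 3831 bp away. It had ranks 2439 and 800, so it was among the top 2133 of replicate 3 alone.

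The other lists are given by count, to be read beside the 1.61% over all genes. Distances from member to nearest start varied widely, with wor at 570 bp and kay at 2651 bp. Farther off were Eip75B at 11224 bp, wg at 13057 bp, Dfd at 20934 bp and bi at 21456 bp. The ecdysone list had 3 of 14: Eip63E, a cyclin-dependent kinase (rank 874; ranks 390 and 3311 in replicates 2 and 3), and the nuclear receptors Eip75B (1102; 907 and 1779) and Hr38 (1218; 1489 and 1495). The stress list had kay, the Fos subunit of AP-1 (rank 772), and Gadd45 (1405), 2 of 15, and the clock list had vri, a repressor of Clk (rank 614, in lncRNA:CR44743), 1 of 9. Disc patterning had 3 of 16, the signal genes wg (rank 1245) and hh (1378) and the T-box gene bi (1425). The Notch and EGFR list had 3 of 14, fng (568), the ligand gene Ser (811) and E(spl)mbeta-HLH (1839).

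Hox and segmentation genes had 3 of 16, Antp (rank 1398), kni (1986) and Dfd (1990), and neural transcription factors had 2 of 14, SoxN (1821) and wor (1916). The salivary gland list had CrebA, 1 of 12. Of these named members, those near kay, Gadd45, vri, Eip75B, Hr38, wg, fng, Antp and CrebA were among the top 2133 of both replicates, and the others in 1 or neither.

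The sequence of the summit windows was not used to choose the members, so 14 strings, searched on both strands within 100 bp of the summit, were compared with 794 intronic summits of the same ranks by a two-sided Fisher's exact test with Benjamini-Hochberg adjustment. The strings were called at an adjusted p under 0.05, and 1 of 14 passed (7.14%). CAGGTAG, the core bound by the early embryonic factor Zelda, occurred in 7 of 306 members (2.29%, interval 0.925 to 4.66), 2 of 794 intronic summits (0.252%) and 0.890% of the windows meeting the position rule. The ratio was 7.77 (adjusted p = 0.0358, Fisher's exact test), but it passed in 0 of 9 alternatives (adjusted p from 0.155 to 0.830, ratio from 1.33 to 18.1). The 7 members had ranks 597 (Pex7), 604 (tara), 838 (Brd), 1332 (CG33467), 1849 (CG10750), 1889 (CG9300) and 1990 (Dfd), and 3 of them were in both replicates. Peaks are not replicates, so these p-values describe the lists and not the spread between larvae.

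Repeats of GA and CA were more frequent in members than in the windows, which was not tested, and did not pass the test against introns. GAGAGAG, the string of GAGA factor, was in 19 members (6.21%, interval 3.78 to 9.53), 72 intronic summits (9.07%) and 2.21% of windows. The ratio of members to introns was 0.697 (adjusted p = 0.633, Fisher's exact test; range over 9 alternatives 0.0382 to 0.887). Against all 1627 other summits of these ranks, promoters included, 195 of which held it, the ratio was 0.529 (adjusted p = 0.0382, Fisher's exact test). CACACACA was in 24 members (7.84%), 77 intronic summits (9.70%) and 4.03% of windows, with a ratio of 0.819 (adjusted p = 0.877, Fisher's exact test). The 19 members with GAGAGAG included ranks 355 (jing), 366 (SrpRbeta), 372 (CG1888), 485 (klu), 850 (ph-d), 1398 (Antp) and 1582 (Su(z)2), and 13 of the 19 were in both replicates.

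**Figure D4:**
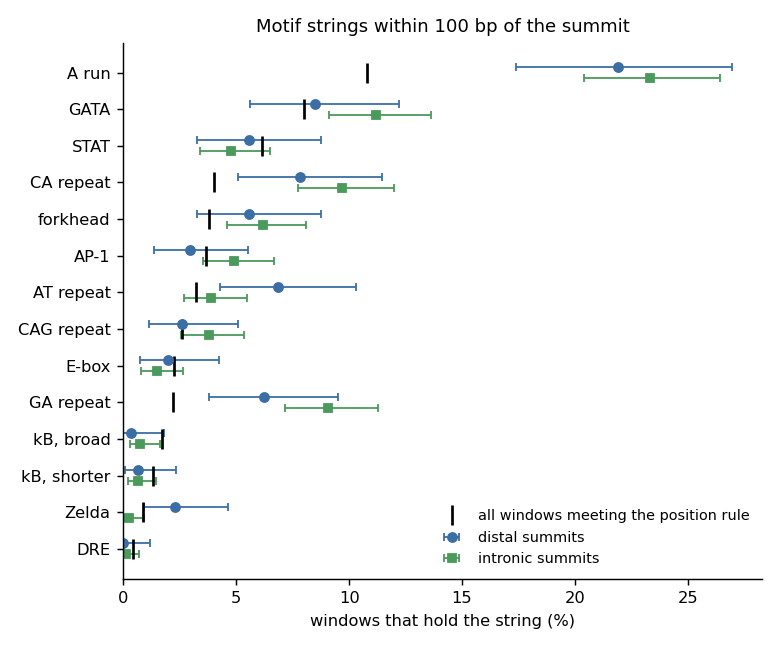
Share of summit windows (100 bp either side) that hold each of 14 strings, in percent (x axis), for distal summits (blue circles, n = 306) and intronic summits (green squares, n = 794) with exact 95% binomial intervals, and for all windows meeting the position rule (black ticks). The intervals of distal and intronic summits overlap for GA (6.21% and 9.07%) and CA repeats (7.84% and 9.70%), and both sets lie above the windows (2.21% and 4.03%).

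Around the summits, the GA string had no sharp peak in members. In bins of 100 bp out to 1000 bp either side, it was in 0.980% to 4.90% of members, with 2.94% and 3.59% in the bins next to the summit. In intronic summits its share ran from 1.89% to 6.93%, the highest in the bin from 200 to 100 bp before the summit on the plus strand. CACACACA reached 7.19% of members in that same bin and 7.56% of intronic summits. These profiles are a description, with no test.

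**Figure D5:**
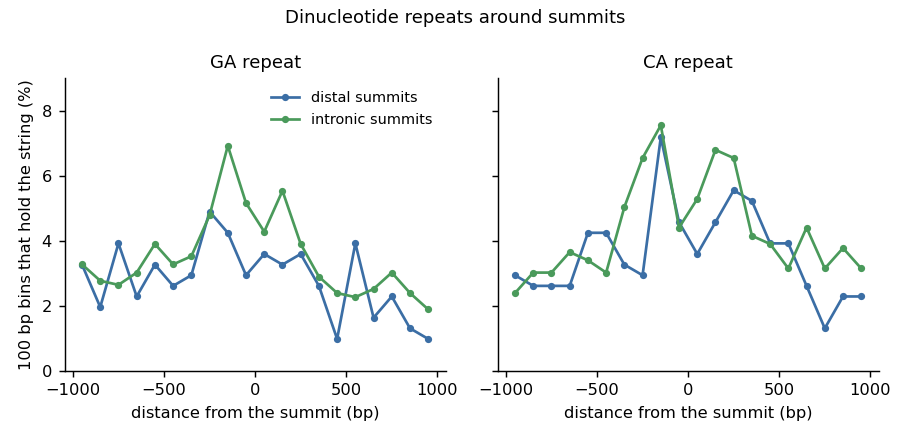
Share of 100 bp bins that hold the GA string (left) or the CA string (right), in percent (y axis), by distance of the bin's middle from the summit in bp along the plus strand (x axis), for distal (blue, n = 306) and intronic summits (green, n = 794). The GA line of distal summits stays between 0.980% and 4.90%, and that of intronic summits rises to 6.93% before the summit.

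The kB site bound by NF-κB proteins was rare. The broad kB string was in 1 member (0.327%), 6 intronic summits (0.756%) and 1.71% of windows, and a shorter kB string, GGGRWTYMC (R for A or G, W for A or T, Y for C or T, M for A or C), was in 2 (0.654%), 5 (0.630%) and 1.30%. The adjusted p was 0.877 and 1 (Fisher's exact test). The 3 members were ranks 459 near corto, 725 between mtSSB and tara and 1441 near Cpr51A, a cuticle protein gene, and the first 2 were in both replicates. No match says only that these letters were not in this window.

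Of the other strings, the A run AAAAAAAA was in 67 members (21.9%), 23.3% of introns and 10.8% of windows, and ATATATAT in 21 (6.86%), 3.90% and 3.23% (adjusted p = 0.389, Fisher's exact test). GATAAG of GATA factors was in 26 members, TTCNNNGAA of STAT in 17, TGTTTAC of forkhead factors in 17, TGANTCA of AP-1 in 9, CAGCAGCA in 8, CACGTG in 6 and TATCGATA, the DRE, in 0 of 306 (exact interval 0 to 1.20%; 3 counts of the total would be 0.980%). None of these passed against introns, with adjusted p from 0.633 to 1 (Fisher's exact test). The median GC content was 36.8% in members, 37.8% in introns and 41.3% in windows. The part of base composition in these shares was not tested.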

How the data were processed

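Per the file headers and labels, the authors deposited narrowPeak lists of the single replicates and of both pooled. Software and versions for alignment and peak calling are not stated in those sources. The deposited signal value is the authors' value for a region, and served here to order the regions of 1 list. The deposited −log10 q was copied beside each peak and entered no result. Lists on dm3 were not used. Genes were those of Ensembl release 115 (BDGP6.54, which has the coordinates of dm6) on the 6 main chromosomes, with 19607 protein-coding start sites. Transposable elements were not counted as genes, and no member lay in one. The members, gene lists and tests were chosen with earlier results of these data known.

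By rule, the text names the 25 strongest members, those in non-coding genes with a name, the 10 farthest from a start site, the 10 intervals with most members and up to 4 members per gene list. Of these, 1 interval is not reported here. The members near microRNAs, those holding a string, those far apart in rank between replicates and the intervals CG4004 to Paics, fng to Sems, Pex7 to hry and CG6163 to CG11726 were named after their values were seen. Of 269 list symbols, 1 (caudal) was not matched and 1 named a gene already on its list (Hr46, also listed as Hr3). For a ratio, 0.5 was added to each count. Intervals are at 95% and cover counting error only. Alternatives changed the TSS distance, ranks, overlap, list length, window and comparison set, or used ranks 201 to 2133 of 1 replicate's relaxed list. Tools were scipy 1.17.1, numpy 2.4.6, pandas 2.3.3 and matplotlib 3.10.9 under Python 3.11.15. The motif and class calculations were tested on simulated data.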

Additional observations from a re-analysis of the deposited data

How the results depend on the processing

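The number of distal summits was 365 with a TSS distance of 250 bp, 267 with 1000 bp, 326 over all ranks and 285 with the whole peak outside genes. It ran from 294 to 334 with 1 replicate left out, and was 142 among ranks up to 1066, where fewer peaks enter. The share in both replicates, 59.5%, was 56.2% when the overlap had to cover at least 0.5 of the peak (52.7% of all 1933 peaks). It was 50% with a replicate summit within 100 bp (46.1% of all 1933 peaks), 91.8% with the top 4266 regions (89.4%), 28.4% with the top 1066 (26.2%) and 90.8% among ranks up to 1066 (88.2%), so members and list moved together. The count of strings past the test against introns, 1 with windows of 100 bp, was 0 with 50 bp, 0 with 200 bp, 0 among ranks up to 1066, 0 for intergenic members, and 0 to 0 with 1 replicate left out. It was also 0 among summits in both replicates and 0 with 1 member per interval, both added after the data were seen. Against all other summits it was 1, GAGAGAG in place of CAGGTAG. Of 9 motif calls that were lost, all were of CAGGTAG, whose ratio stayed above 1 (1.33 to 18.1); the cause was not tested. No paired analysis was possible because there is 1 group. Library depth is not known, so no value could be set beside it.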
